A study of Mus musculus with 22 samples.

Results

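The 4V ChP of mice labelled Otx2(+/-) was set directly against that of mice labelled Otx2(+/AA), with 2 pools of tissue in each group. Both labels name 1 wildtype copy of Otx2 and 1 other allele, so the comparison takes 1 allele against another and does not use wildtype mice as its control. The 4 pools were chosen by their titles from 22 deposited samples, and 2 wildtype pools of the same sequencing run are given beside them as a description. All 6 libraries came from B6D2 mice and were sequenced together on 1 lane. In the study's methods, the heterozygotes are Otx2+/GFP mice aged 3 months, which carry a GFP allele of Otx2. Tissue of 4 of them was pooled, and so was that of 5 wildtype littermates of the same age, with 2 samples of each genotype. The methods do not say whether each sample holds that number of mice or whether the 2 samples share mice. The GFP allele is constitutive and so present in every tissue through development. The sources used here do not explain the AA allele and do not give the age, the pool size or the litters of the Otx2(+/AA) mice. Differences of age, litter or dissection between the groups cannot be told apart from the genotype.

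The ChP is a folded epithelium around a vascular stroma that hangs in the brain ventricles, secretes the CSF and forms the barrier between blood and CSF. Its epithelial cells carry ion pumps and water channels, are sealed by tight junctions, and release carrier proteins such as transthyretin together with growth factors. OTX2 is a homeodomain transcription factor of the bicoid type that is needed to form the ChP and is kept on in the adult epithelium. It is also an early patterning factor of the forebrain and midbrain and a regulator of the photoreceptors and pigment epithelium of the eye.

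Between 38183169 and 43790479 counts were deposited for each of the 4 pools, summed over transcripts. The mitochondrial share of the counts was higher in both Otx2(+/-) pools (28.1% and 27.7%) than in both Otx2(+/AA) pools (24.4% and 20.7%), and its part in the results was not tested. All 5 defining markers of the ChP epithelium (Ttr, Folr1, Kcnj13, Kl and Clic6) were present in every pool, and the 15 epithelial markers together summed to 128645 and 142982 CPM, or counts scaled to a common library total, in the Otx2(+/-) pools and 164621 and 177909 CPM in the Otx2(+/AA) pools. Without Ttr, the other 14 markers summed to 52287 and 48784 CPM against 50313 and 49934 CPM, so that the groups overlapped. A sum is carried by its most abundant members and does not show each marker. The pools of 6 of the 15 markers were lower without overlap and those of 2 higher, beside 23.1% and 21.3% of all genes. The median log2 fold change of the 15 was -0.15, and Folr1 was called lower and Otx2 higher, as given below. Fewer cells of a type and less RNA per cell cannot be told apart in pooled tissue. The defining markers of endothelium, fibroblasts, macrophages, neurons and glia were above 0, at low summed levels. The Y-linked genes Ddx3y, Eif2s3y and Kdm5d had 0 counts in all 6 pools and Uty had 1 count, in 1 Otx2(+/AA) pool, while Xist was present in every pool, although the study's methods give both sexes in equal share. Of 14578 genes, 435 differed more than 2-fold between the 2 Otx2(+/-) pools, 385 between the 2 Otx2(+/AA) pools and 520 between the means of the 2 groups.

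The whole-transcript count of the targeted gene went against the label. The study, reading a single exon, reports less Otx2 RNA in this model than in wildtype. Otx2, on the minus strand of chr14:48657677-48673819 (GRCm38), had normalized counts of 20541 and 17684 in the Otx2(+/-) pools and 6773 and 7072 in the Otx2(+/AA) pools. Normalized counts are counts scaled by library size and by the composition factor of edgeR. The wildtype pools had 7177 and 6091, so both Otx2(+/-) pools lay above all other pools, and the Otx2(+/AA) pools lay beside wildtype. The log2 fold change of Otx2(+/-) over Otx2(+/AA) was 1.47 (SE 0.15; edgeR adjusted p = 3e-04). The count is made over the whole transcript and does not say which allele the reads came from, which exons they cover or whether the RNA is translated. For this reason the groups are called only by their labels, and every direction is given as Otx2(+/-) relative to Otx2(+/AA).

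The rise was not shared by all annotated Otx2 transcripts. For 7 of 8 transcripts the log2 fold change was 0.79 to 1.47, and each was called among 51105 transcripts tested in the same way. Otx2-206 alone had a value below 0, with 947.8 and 709.8 normalized counts in the Otx2(+/-) pools and 1019.9 and 1221.8 in the Otx2(+/AA) pools. Its log2 fold change of -0.43 (SE 0.17) did not pass the test (edgeR adjusted p = 0.294). Otx2-206 is also the 1 transcript of the 8 that lacks the exon with the start codon (chr14:48662444-48662659) and everything upstream of it. The other 7 share most of their exons, so a read can count for several of them and their values are not independent.

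**Figure D1:**
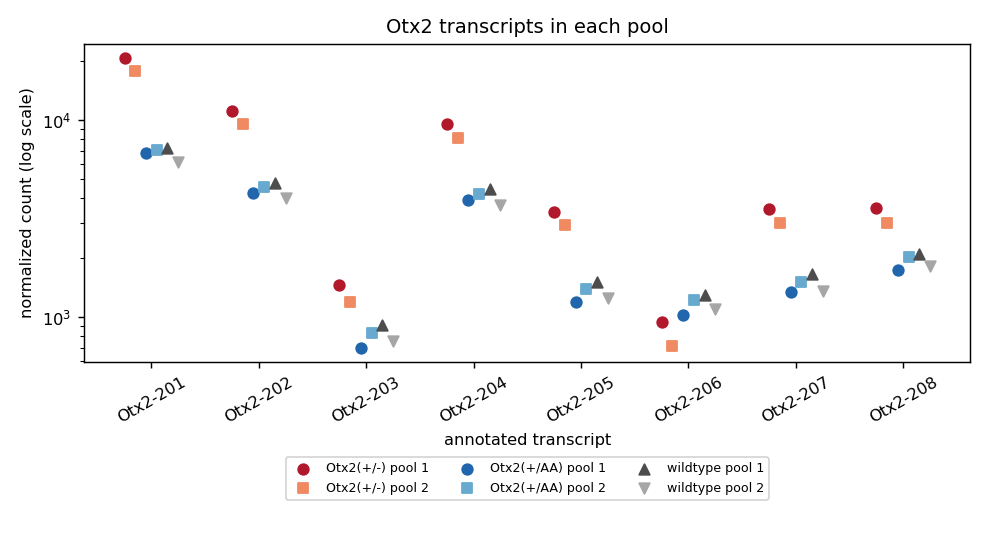
Normalized counts (log axis) of the 8 annotated Otx2 transcripts, with 1 point for each pool and 2 pools for each of 3 groups. The Otx2(+/-) points lie above the other pools for 7 transcripts and below the Otx2(+/AA) points for Otx2-206.

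Across all genes, 393 of the 14578 tested were called at an adjusted p under 0.05 (2.7%), 199 higher (1.37%) and 194 lower (1.33%) in the Otx2(+/-) pools. Between the 2 groups the pools of all 393 did not overlap, as was so for 44.4% of all genes tested. The median size of a called difference was 1.11 on the log2 scale and the smallest was 0.56. Among the called genes, 126 were more than 2-fold higher and 118 more than 2-fold lower, and 34 in each direction passed 4-fold. The median log2 fold change over all genes was 0.001, with quartiles of -0.19 and 0.19. The number called depended on which pool was left out, from 403 without Otx2(+/-) pool 1 to 790 without Otx2(+/-) pool 2, and with counts scaled by total alone it was 183 higher and 294 lower. DESeq2 called 415 of 14295 genes (2.9%). With 2 pools on each side, the smallest p that an exact permutation of the pools allows for 1 gene is 0.333, so the calls rest on a spread that edgeR estimates over all genes.

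**Figure D2:**
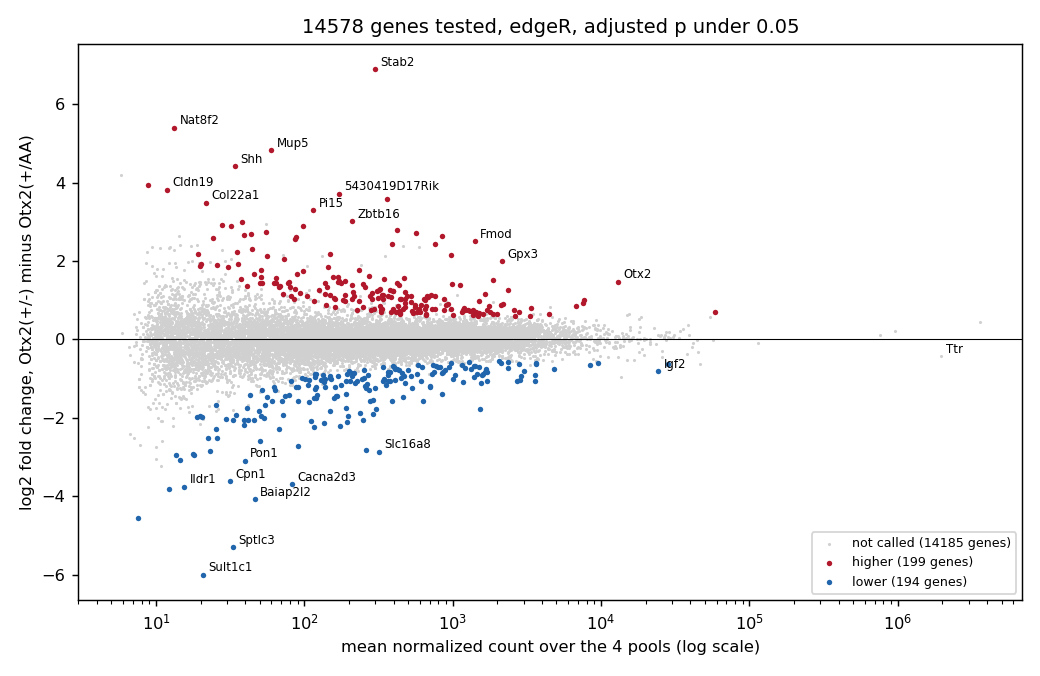
Log2 fold change of Otx2(+/-) over Otx2(+/AA) against the mean normalized count over the 4 pools (log axis), with 1 point for each of 14578 genes. The 199 genes called higher and the 194 called lower span all levels, and Ttr, at the far right, was not called.

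Among the 12 largest increases were a signalling molecule, a hormone receptor and several secreted proteins. Trhr, the receptor of thyrotropin-releasing hormone (chr15:44196135-44235912), had 565 and 772 normalized counts in the Otx2(+/-) pools against 36.5 and 75.5 in the Otx2(+/AA) pools, a log2 fold change of 3.59 (SE 0.28; edgeR adjusted p = 4.3e-05). Shh, the secreted hedgehog ligand that patterns the neural tube (chr5:28456815-28467256), had 76 and 53 raw counts against 3 and 3. That is a ratio of 22.3 (95% interval 9.95 to 61.8, exact and for counting error only). Its pools did not overlap, and both wildtype pools had 0 normalized counts. Pi15, a secreted peptidase inhibitor, had 219 and 198 normalized counts against 20.6 and 21.7 (log2 3.29). 5430419D17Rik had 360 and 278 against 23.4 and 24.8 (log2 3.72), with an adjusted p of 9e-06 by edgeR. Col22a1, a collagen of tissue junctions, had 41.4 and 38 against 2.81 and 4.14 (log2 3.48). Pik3c2g, a lipid kinase, and Shisal1 followed with log2 values of 2.99 and 2.92. Cldn19, a claudin of tight junctions, had only 29 and 15 raw counts against 2 and 1, a ratio of 15.2 (exact 95% interval 4.87 to 76.4). Without Otx2(+/-) pool 1, Cldn19 had an adjusted p of 0.11 by edgeR.

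Other large increases had pools far apart or belonged to families of related genes. Stab2, a scavenger receptor of sinusoidal endothelium, had 156 and 1036 normalized counts in the Otx2(+/-) pools and 4.68 and 5.17 in the Otx2(+/AA) pools, but also 8.29 and 438 in the wildtype pools. Its log2 fold change of 6.89 is the largest of all called genes with a mean normalized count above 10. With all 3 groups of the run in 1 fit, the adjusted p of Stab2 was 0.056 by edgeR. Zbtb16, a zinc-finger repressor that glucocorticoids induce in many tissues, had 669 and 79 against 55.3 and 37.2, with 627 and 54.2 in wildtype. Without Otx2(+/-) pool 1 its log2 fold change fell from 3.01 to 0.76 (adjusted p = 0.44 by edgeR), and DESeq2 did not call it (adjusted p = 0.31). Mup5, a secreted lipocalin of the major urinary protein family, had 102 and 128 against 0 and 8.28. It was not called by DESeq2 (adjusted p = 0.24), and without Otx2(+/AA) pool 2 its fitted log2 fold change rose from 4.82 to 9.86. Nat8f2, of a family of N-acetyltransferases, had 20 and 31 raw counts against 0 and 1, a ratio of 52.8 (exact 95% interval 9.06 to 2125). Its relatives Nat8f5, Nat8 and Nat8f6, looked up after their values were seen, were called higher too, with log2 values of 1.68, 1.88 and 3.94. Genes of the Mup and Nat8 families have related copies. Whether reads were split or shared among them was not tested.

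Among the 12 largest decreases were enzymes, channel subunits, a homeobox gene and an opsin gene. Sult1c1, a cytosolic sulfotransferase (chr17:53961615-53990674), had 0 and 1 raw counts in the Otx2(+/-) pools against 37 and 45 in the Otx2(+/AA) pools, a ratio of 79.2 with an exact 95% interval of 13.8 to 3167. Sptlc3, a subunit of the enzyme that starts sphingolipid synthesis (chr2:139493913-139637674), had 2 and 1 raw counts against 95 and 39, a ratio of 43.2 (14.5 to 212). In both cases every Otx2(+/-) pool lay far below every Otx2(+/AA) pool. Baiap2l2, a membrane-bending protein, had 5.05 and 5.13 normalized counts against 93.7 and 80.7 (log2 -4.07, SE 0.39; edgeR adjusted p = 0.00022). Cacna2d3, an auxiliary subunit of calcium channels, had 6.06 and 17.4 against 151 and 154 (log2 -3.69). Chrnb4, a nicotinic acetylcholine receptor subunit, had 3 and 0 raw counts against 28 and 19, a ratio of 15.1 (4.87 to 76). Its fitted log2 fold change moved from -3.81 to -7.54 without Otx2(+/-) pool 1, where the remaining pool held 0 counts. Ildr1, a protein of tricellular junctions, had 2 and 2 raw counts against 32 and 27, a ratio of 14.3 (5.28 to 54).

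The blood enzymes Cpn1 and Pon1 fell as well. Cpn1, the catalytic subunit of carboxypeptidase N, had 4.04 and 5.13 normalized counts against 46.8 and 69.3 (log2 -3.62). Pon1, a lipoprotein-bound esterase, had 7.07 and 9.23 against 59 and 82.8 (log2 -3.10). Klhl14 had a log2 value of -2.94 and Ly6g6d, a surface protein of the Ly6 family, -2.91. Sebox, a homeobox gene, had 3.03 and 3.08 against 33.7 and 18.6 (log2 -3.06), and without Otx2(+/AA) pool 1 its adjusted p was 0.13 by edgeR. Rrh, which encodes the opsin peropsin of the pigment epithelium, had 1.01 and 5.13 against 28.1 and 20.7 (log2 -2.95). The call of Rrh was lost without Otx2(+/-) pool 1 (adjusted p = 0.13 by edgeR), without Otx2(+/AA) pool 1 (adjusted p = 0.084), under DESeq2 (adjusted p = 0.06) and with the sum over transcripts (adjusted p = 0.056), and without Otx2(+/-) pool 2 its log2 value was -4.44.

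**Figure D3:**
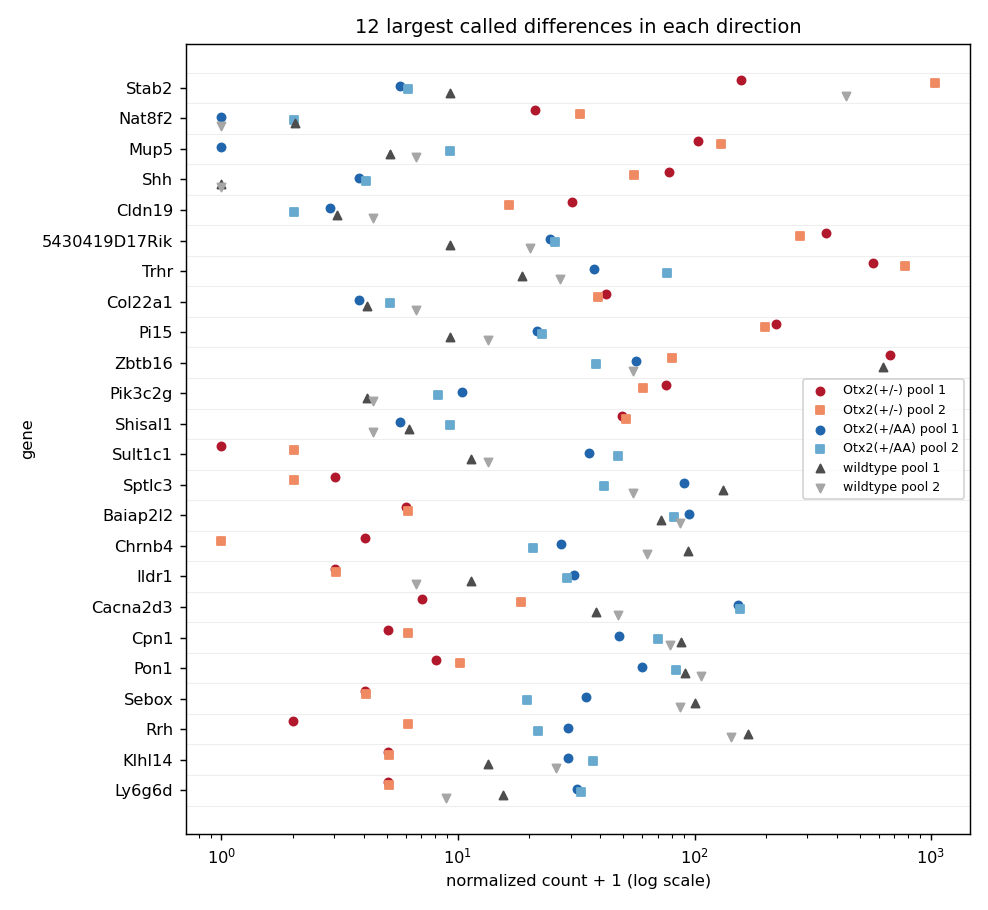
Normalized counts plus 1 (log axis) of the 12 genes with the largest called increase (upper rows) and the 12 with the largest called decrease (lower rows), with 1 point for each of 6 pools. The Otx2(+/-) and Otx2(+/AA) points do not overlap for any of the 24 genes, and for Stab2 and Zbtb16 1 wildtype pool lies near each group.

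Promoter windows of these 24 genes were searched for TAATCC, the core letters that bicoid-type homeodomains such as that of OTX2 bind, on both strands. The windows are those of RefSeq (GRCm38.p6), with 250 bases before and 50 after the start of a gene, and 14 of the 24 genes matched an entry. Pon1 and Sult1c1, both lower in the Otx2(+/-) pools, held the letters, and their windows are shown because they are the 2 of the 14 that did. Capitals mark TAATCC or its reverse complement.
Pon1, chr6:5193897-5194196, minus strand: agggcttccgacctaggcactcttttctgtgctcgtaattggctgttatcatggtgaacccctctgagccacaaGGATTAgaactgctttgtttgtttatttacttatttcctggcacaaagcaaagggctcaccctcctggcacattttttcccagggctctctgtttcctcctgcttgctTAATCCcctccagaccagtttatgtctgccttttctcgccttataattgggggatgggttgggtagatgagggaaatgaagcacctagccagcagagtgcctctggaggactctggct
Sult1c1, chr17:53990582-53990881, minus strand: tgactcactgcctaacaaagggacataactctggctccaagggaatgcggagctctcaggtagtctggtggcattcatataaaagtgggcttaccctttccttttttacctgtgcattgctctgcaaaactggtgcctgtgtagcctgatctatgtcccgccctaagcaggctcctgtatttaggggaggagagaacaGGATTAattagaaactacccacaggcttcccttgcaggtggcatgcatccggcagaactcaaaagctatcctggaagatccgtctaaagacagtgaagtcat
The first match in the window of Pon1 starts 176 bases before the start of the gene, and that of Sult1c1 starts 52 bases before it (-176 and -52). The letters were found in the windows of 7.52% of the genes called higher (10 of 133 matched), 4.93% of those called lower (7 of 142) and 7.2% of all genes tested (766 of 10633), and in 7.06% of all windows. A match of letters is a description and not a measured binding site.

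The proteins that the ChP releases into the CSF moved in both directions. Of 39 listed secreted proteins that were tested, 5 were higher and 3 lower (20.5% called, beside 2.7% of all genes). Their median log2 fold change was 0.09. All the called members are genes that the study reports as changed in these Otx2(+/-) pools against wildtype. The list was filled with those results known, so its share is not independent evidence. Igf2, a growth factor that the ChP releases into the CSF, fell from 30594 and 31217 normalized counts in the Otx2(+/AA) pools to 17839 and 17482 in the Otx2(+/-) pools, a log2 change of -0.81 (SE 0.14; edgeR adjusted p = 0.011). Wildtype had 43365 and 44848, so the 3 groups were ordered without overlap. Igfbp2, which binds IGFs, had 21851 and 22642 against 34429 and 34660 (log2 -0.63), and its call was lost without Otx2(+/-) pool 1 (adjusted p = 0.11 by edgeR) and without either Otx2(+/AA) pool (adjusted p = 0.061 and 0.079). Scg5, a chaperone of prohormone processing, had 511 and 432 against 1341 and 1128 (log2 -1.39). Gpx3, the secreted glutathione peroxidase, had 3142 and 3697 against 712 and 1010, a log2 change of 1.99 (SE 0.18; edgeR adjusted p = 0.00018). Ndnf, a secreted neuron-derived factor, had 778 and 685 against 94.6 and 116 (log2 2.80), and Fgf1, a fibroblast growth factor, had 605 and 624 against 194 and 259 (log2 1.44). Ttr, the carrier of thyroxine and retinol-binding protein and the most abundant epithelial marker, had 1527871 and 1794812 against 2187519 and 2300048. Its pools did not overlap, but its log2 difference of -0.43 (SE 0.17) did not pass the test (edgeR adjusted p = 0.27). Leaving out 1 pool at a time gave 9 or 10 called members of this list.

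In the handling of thyroid hormone and retinoids, 24 genes were tested, with a median of -0.03. Of these, 2 were higher and 1 lower (12.5% called, beside 2.7% of all genes). Besides Trhr, the higher gene was Slc16a10, a carrier of aromatic amino acids and thyroid hormone, with 77.7 and 69.8 normalized counts against 12.2 and 17.6 (log2 2.31). Stra6, the receptor through which cells take up retinol, was lower, with 578 and 659 against 1046 and 1157 (log2 -0.83; edgeR adjusted p = 0.0085). These 3 genes differ in role, being a receptor of a releasing hormone, a hormone carrier and a vitamin A receptor. With 1 pool left out, 4 to 6 of the 24 were called, the most without Otx2(+/-) pool 2.

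Among 42 receptors of hormones, transmitters and growth factors and their close partners, 5 were higher and 2 lower, with a median of 0.27. The share called was 16.7%, beside 2.7% of all genes. Adora1 and Adora2b, both receptors of adenosine, moved in opposite directions. Adora1 had 471 and 526 normalized counts against 192 and 270 (log2 1.11). Adora2b had 59.6 and 81 against 134 and 154 (log2 -1.03), with an adjusted p of 0.14 by edgeR without Otx2(+/-) pool 1 and of 0.054 by DESeq2. The growth factor genes of the list also split. Fgf1, given above, and Tgfa, a ligand of the EGF receptor (1972 and 1462 against 1068 and 995, log2 0.74), were higher, while Fgf9 was lower, with 9.08 and 7.18 against 36.5 and 26.9 (log2 -1.95). Tgfa had an adjusted p of 0.24 without Otx2(+/-) pool 1 by edgeR. Fgf9 was not called when any of 3 pools was left out (adjusted p = 0.06 and 0.08 without Otx2(+/-) pools 1 and 2, and 0.22 without Otx2(+/AA) pool 1). Trhr and Ednrb, the endothelin B receptor, completed the higher members. Between 4 members, without Otx2(+/-) pool 1, and 10, without Otx2(+/-) pool 2, were called with a pool left out.

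Of 53 carriers of the blood-CSF barrier that were tested, 6 were lower and 2 higher (15.1% called, beside 2.7% of all genes). Their median was -0.07. The largest decrease was that of Slc16a8, a lactate carrier of pigment epithelium, with 47.4 and 108 normalized counts against 570 and 552 (log2 -2.86, SE 0.28; edgeR adjusted p = 0.00022). Slc16a8 (chr15:79251014-79254761) lies close to Baiap2l2 (chr15:79258195-79285537), given above, on the same strand. Whether reads come from transcripts that span both was not tested. Slc39a4, a zinc importer, had 102 and 173 against 460 and 475 (log2 -1.76). Slc22a8, the organic anion transporter OAT3, had 282 and 230 against 440 and 514 (log2 -0.90), and Slc6a15, a neutral amino acid carrier, had 923 and 1068 against 1650 and 1703 (log2 -0.75). Folr1, the folate receptor that defines the ChP epithelium, had 7785 and 7438 against 11092 and 12050 (log2 -0.60). Slc1a3, a glutamate carrier, was higher, with 529 and 663 against 358 and 222 (log2 1.03), and so was Slc16a6, with 2118 and 1783 against 1247 and 1256 (log2 0.64). Several of these calls were close to the threshold. Slc6a15 and Slc16a6 were lost without Otx2(+/-) pool 1 (edgeR adjusted p = 0.073 and 0.23). Folr1 was lost without Otx2(+/-) pool 1, Otx2(+/-) pool 2 or Otx2(+/AA) pool 2 (adjusted p = 0.089, 0.11 and 0.13 by edgeR). Slc1a3 was not called with all 3 groups in 1 fit (edgeR adjusted p = 0.053) or with the sum over transcripts (0.066). With a pool left out, 4 to 7 members were called lower and 1 to 5 higher.

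Ion pumps, water channels and acid-base proteins, the machinery of fluid secretion, were called at the share of all genes. Of 40 tested, 1 was lower and 0 were higher, or 2.5% of those tested beside 2.7% of all genes, with a median of 0.03. The member called was Atp2b4, a calcium pump of the plasma membrane, with 624 and 596 normalized counts against 970 and 1012 (log2 -0.70; edgeR adjusted p = 0.017). Kcnj13, a potassium channel, had 9562 and 8235 against 8218 and 8451, and Clic6, a chloride channel protein, 29063 and 25539 against 29542 and 25257, so that both groups overlapped. Between 1 and 3 members were called with a pool left out, the most without Otx2(+/AA) pool 1, and 4 (2 higher and 2 lower) by DESeq2 or with the replicate number as a block.

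Junction and adhesion genes gave 3 higher and 2 lower of 29 (17.2%, beside 2.7% of all genes), with a median of 0.06. Megf11, a cell surface protein of the EGF-like family, had 1599 and 1307 normalized counts against 218 and 244, a log2 change of 2.65 (SE 0.16; edgeR adjusted p = 9e-06). Marveld2, also called tricellulin, had 429 and 413 against 173 and 232 (log2 1.06), and Jam3, a junctional adhesion molecule, had 1210 and 1216 against 590 and 711 (log2 0.90). Cldn9, a claudin, was lower, with 307 and 326 against 766 and 725 (log2 -1.24; edgeR adjusted p = 0.001). Cdh3, or P-cadherin, had 1016 and 1410 against 1897 and 2455 (log2 -0.84) and was not called without Otx2(+/-) pool 1 (adjusted p = 0.098 by edgeR). With a pool left out, 4 to 9 members were called, the most without Otx2(+/-) pool 2.

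Of 41 collagens and extracellular matrix genes, 6 were higher and 1 lower (17.1%, beside 2.7% of all genes), with a median of 0.19. Of the higher genes, Col11a1, Fmod, Sulf2 and Col1a2 are in the study's list of genes higher in both of its models. That list was chosen with these Otx2(+/-) pools, so the share given here is not independent evidence. Fmod, or fibromodulin, a small proteoglycan that binds collagen fibrils, had 2588 and 2202 normalized counts against 284 and 565, a log2 change of 2.50 (SE 0.25; edgeR adjusted p = 0.00024). Col11a1, a fibrillar collagen, had 183 and 112 against 18.7 and 31 (log2 2.57). Dcn, or decorin, had 9037 and 8276 against 4214 and 5368 (log2 0.85), and Col1a2, a chain of type I collagen, had 3348 and 3170 against 1631 and 2210 (log2 0.76). Sulf2 and Sulf1, a pair of enzymes that trim heparan sulfate, moved in opposite directions, with log2 values of 1.01 and -0.64. Sulf1 was not called without Otx2(+/-) pool 1 (edgeR adjusted p = 0.091), nor without Otx2(+/-) pool 2 or Otx2(+/AA) pool 1 (0.058 and 0.12), and Col1a2 was not called without Otx2(+/AA) pool 1 (adjusted p = 0.11 by edgeR). With a pool left out, 5 to 12 members were called, the most without Otx2(+/AA) pool 2.

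Markers of stromal fibroblasts share Col1a1, Col1a2, Col3a1, Dcn and Lum with the matrix list, so the values of these lists are not independent. Summed over 16 markers, they summed to 1531 and 1513 CPM in the Otx2(+/-) pools and 1117 and 1351 in the Otx2(+/AA) pools, without overlap. Of 15 tested, 2 were higher (13.3%, beside 2.7% of all genes). These were the same Dcn and Col1a2 that stand in the matrix list, and the median was 0.37. The defining marker Col1a1 had 408 and 547 normalized counts against 391 and 581, and Lum had 4968 and 3842 against 2768 and 3338, which did not pass the test (edgeR adjusted p = 0.14). Whether the share of stromal cells has a part in the matrix result was not tested.

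Signals of the Wnt, BMP, TGF-beta and hedgehog families gave 2 higher and 1 lower of 46, with a median of 0.16. The share called was 6.52%, beside 2.7% of all genes. The higher members were the ligand Shh and Hhip, a membrane protein that binds and restrains hedgehog ligands. Hhip had 364 and 359 normalized counts against 83.4 and 129, a log2 change of 1.77 (SE 0.21; edgeR adjusted p = 0.0011). The lower member was Bmp6, a bone morphogenetic protein, with 948 and 1006 against 2125 and 2086 (log2 -1.11; edgeR adjusted p = 0.0011). All pools of the 2 groups were apart for these 3 genes. Between 3 and 6 members were called with a pool left out, the most without Otx2(+/-) pool 2.

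Transcription factors of the ChP and of hindbrain position had a median of 0.07. Of 24 tested, 2 were higher and 0 lower (8.33%, beside 2.7% of all genes). These were Otx2 itself and Hopx, a homeodomain-only cofactor, with 1746 and 1818 normalized counts against 1142 and 1233 (log2 0.59). Hopx was not called without Otx2(+/-) pool 1 (edgeR adjusted p = 0.077), Otx2(+/-) pool 2 (0.085) or Otx2(+/AA) pool 1 (0.12).

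Of 45 antigen presentation and interferon-inducible genes tested, 3 were lower and 1 higher (8.89%, beside 2.7% of all genes), while the median was 0.16. H2-K1, a class I molecule, had 554 and 465 normalized counts against 1008 and 867 (log2 -0.88; edgeR adjusted p = 0.0088). The class II genes H2-DMb1 (38.4 and 32.8 against 118 and 93.1, log2 -1.57) and H2-Eb1 (563 and 575 against 958 and 841, log2 -0.66) were lower too. H2-Eb1 was lost without Otx2(+/-) pool 1 (adjusted p = 0.073 by edgeR) or Otx2(+/AA) pool 1 (adjusted p = 0.076). Wildtype had 565 and 437 normalized counts of H2-Eb1, beside the Otx2(+/-) pools. Usp18, an interferon-induced protease, had 177 and 57.4 against 17.8 and 39.3, and its log2 fold change fell from 2.05 to 1.02 without Otx2(+/-) pool 1 (adjusted p = 0.32 by edgeR). The members called numbered 3 without that pool and 14, of which 11 were higher, without Otx2(+/-) pool 2. Outside this list, H2-Q10 and Ifi27l2a, a class I gene and an interferon-inducible gene looked up after their values were seen, were called higher (log2 2.67 and 1.44). The class I and class II genes have close copies, and reads may be shared among them. H2-K1, H2-DMb1 and H2-Eb1 also lie close together on chromosome 17 (starts at 33996017, 34153072 and 34305867). Whether linked DNA differs between the groups there was not tested. Of 27 complement, acute phase and chemokine genes, 0 were called by edgeR, with a median of -0.20, and with a pool left out 2 to 4 were called. Macrophage markers summed to 114 and 127 CPM in the Otx2(+/-) pools and 124 and 149 in the Otx2(+/AA) pools, with 0 of 15 called. Among 3 lymphocyte markers tested, the immunoglobulin gene Igkc was lower (9.08 and 6.15 against 32.8 and 27.9, log2 -1.98), and it was not called without Otx2(+/-) pool 2 (adjusted p = 0.1 by edgeR), without Otx2(+/AA) pool 1 (0.16) or by DESeq2 (adjusted p = 0.14).

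Stress genes were looked at in 4 lists. The shares called were 5.26% of oxidative stress enzymes, 4.55% of immediate early genes and 6.25% of p53 targets, beside 2.7% of all genes. Of 38 oxidative stress enzymes, Gpx3 was higher and Nqo1, a quinone reductase, lower (938 and 869 normalized counts against 1512 and 1488, log2 -0.73), with a median of -0.10. Both kept their call under all 12 alternatives. Of 29 ER chaperones, 1 was higher (3.45%, beside 2.7% of all genes), with a median of 0.27. That gene was Herpud1, of the degradation of misfolded ER proteins, with 4597 and 2100 against 1263 and 1530. Without Otx2(+/-) pool 1 its log2 value went from 1.26 to 0.59 (adjusted p = 0.11 by edgeR) and 0 chaperones were called, while 13 were called without Otx2(+/-) pool 2. DESeq2 did not call Herpud1 (adjusted p = 0.32). Herpud1 was also high in 1 wildtype pool (3724 and 1669). Among 22 immediate early genes, Dusp1 alone was higher, with 432 and 394 against 277 and 216 (log2 0.74), and it was not called without Otx2(+/-) pool 1 or Otx2(+/AA) pool 2 (edgeR adjusted p = 0.1 and 0.15). Among 16 p53 targets, Eda2r was higher, with 114 and 85.1 against 40.3 and 49.7 (log2 1.15), and it was not called by DESeq2 (adjusted p = 0.077) or without Otx2(+/-) pool 1 (edgeR adjusted p = 0.19). With a pool left out, 0 to 5 immediate early genes and 0 to 3 p53 targets were called, the most in both lists without Otx2(+/-) pool 2.

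The share called was near that of all genes (2.7%) for motile cilia (2.44%) and for sterol and fatty acid synthesis (3.45%), and 17.4% for imprinted growth genes. Cfap46, an axoneme protein, was the 1 gene higher of 41 motile cilia genes (152 and 132 normalized counts against 66.5 and 65.2, log2 1.11), with a median of 0.05 and 1 to 4 called with a pool left out, the most without Otx2(+/AA) pool 1. Sptlc3 was the 1 gene lower of 29 genes of sterol and fatty acid synthesis, with a median of 0.03, and it is the member of that list that acts on sphingolipids. None of 21 cell cycle genes was called by edgeR, with a median of -0.20. Among 23 imprinted growth genes, Peg10 (608 and 412 against 132 and 217, log2 1.55) and Plagl1 (1999 and 1551 against 1040 and 1147, log2 0.70) were higher, and Igf2 and Ins2 (87.8 and 79 against 147 and 158, log2 -0.87) were lower, with a median of 0.09. Ins2 lies beside Igf2 and its reads may come from transcripts that span both. Plagl1 was not called without Otx2(+/-) pool 1 (edgeR adjusted p = 0.24), and Ins2 was not called without Otx2(+/-) pool 1, Otx2(+/-) pool 2 or Otx2(+/AA) pool 2 (0.055, 0.088 and 0.073) or by DESeq2 (adjusted p = 0.11). Between 3 and 6 imprinted genes were called with a pool left out.

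The study's own lists of genes changed in both of its models were chosen with these Otx2(+/-) pools, so their direction here is not independent evidence. Members of them also stand in other lists given here, whose shares are to that extent not independent evidence either. Of 42 genes listed as higher, 26 were higher and 0 lower (61.9%, beside 2.7% of all genes), with a median of 0.84. Of 34 listed as lower, 15 were lower, with a median of -0.61, and 1 was higher, which was Otx2 (47.1% called). Among the lower genes, Tmprss11a, a membrane serine protease, had 62.6 and 65.6 normalized counts against 496 and 414 (log2 -2.83, SE 0.20; edgeR adjusted p = 1.5e-05). Myo5b, a motor of apical membrane recycling, had 753 and 635 against 2499 and 2208 (log2 -1.76), and Elfn1, a synaptic adhesion protein, had 49.5 and 51.3 against 232 and 209 (log2 -2.13).

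**Figure D4:**
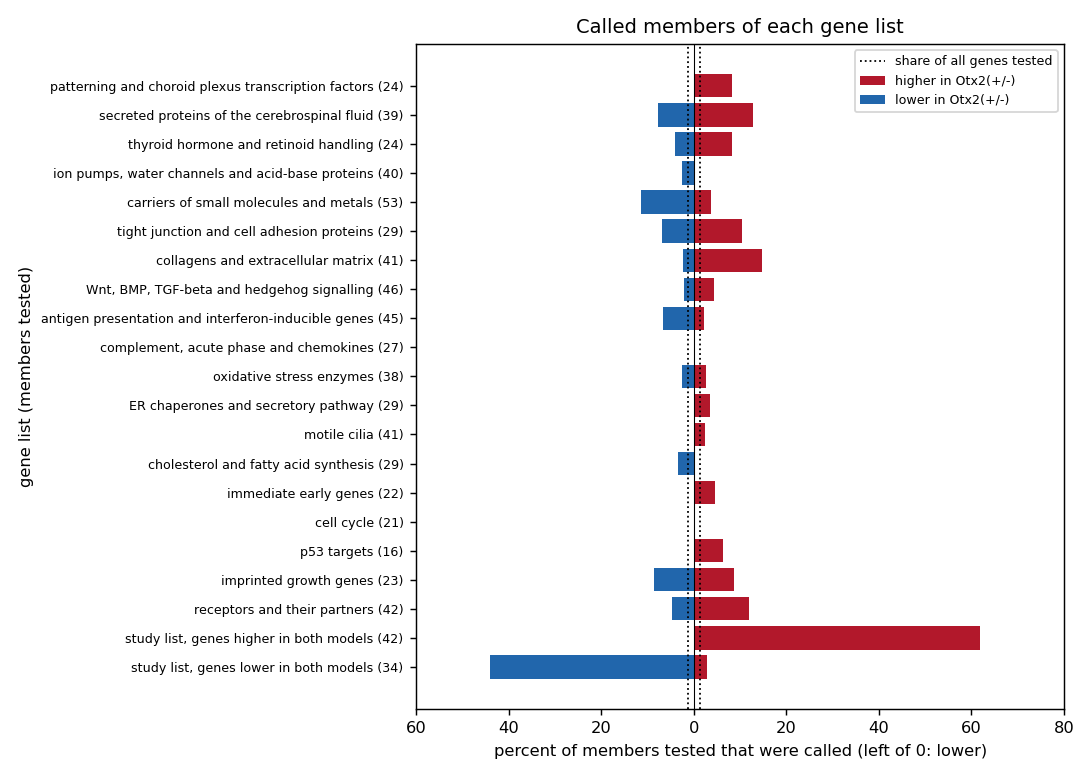
Share of the tested members of each of 21 gene lists that were called higher (right of 0) or lower (left of 0) in the Otx2(+/-) pools, in percent, with the number tested in brackets. Dotted lines mark the share of all genes tested, 1.37% and 1.33%. The lists of the study were chosen with the same Otx2(+/-) pools, among others, so their shares are not independent evidence. Other lists share members with them and are to that extent not independent either.

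Markers of astrocytes and ependyma, which border the ChP, had a median of 0.73. Of 13 tested, 3 were called higher (23.1%, beside 2.7% of all genes). These were Agt, the precursor of angiotensin (95.9 and 130 normalized counts against 35.6 and 47.6, log2 1.44), the glutamate carrier Slc1a3 given above, and the membrane protein Mlc1 (576 and 843 against 407 and 391, log2 0.83). The defining marker Gfap had 284 and 622 against 287 and 183, and Aqp4 had 718 and 938 against 620 and 337. The 14 markers summed to 291 and 406 CPM in the Otx2(+/-) pools and 336 and 321 in the Otx2(+/AA) pools, so the groups overlapped. Mlc1 was not called without Otx2(+/-) pool 2 (edgeR adjusted p = 0.14), and neither Mlc1 nor Slc1a3 was with all 3 groups in 1 fit (0.062 and 0.053) or with the sum over transcripts (0.065 and 0.066), and up to 7 markers were called without Otx2(+/-) pool 1. Of the endothelial, mural, red blood cell, neuronal and oligodendrocyte markers, 0 were called by edgeR, of 15, 10, 3, 10 and 8 tested, with median log2 values of -0.19, -0.28, -0.12, -0.07 and 0.01.

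A further 3 lists were drawn up after values had been seen and are given as a description only. Of 19 circadian clock genes, 4 were higher and 2 lower (31.6%, beside 2.7% of all genes). Arntl, the BMAL1 gene of the positive arm of the clock, had 136 and 175 normalized counts against 314 and 394 (log2 -1.18), and Npas2, its partner, 11.1 and 24.6 against 66.5 and 81.7 (log2 -2.05). Per2 and Per3, of the negative arm, had 639 and 409 against 247 and 244 (log2 1.09) and 398 and 435 against 227 and 233 (log2 0.86), and Tef, an output gene, 2346 and 2045 against 1429 and 1287 (log2 0.69). In wildtype, Per2 had 731 and 370, Per3 330 and 356 and Arntl 120 and 118, so that the Otx2(+/AA) pools lay apart from all other 4 pools. Ciart had 61.6 and 21.5 against 8.43 and 5.17 (log2 2.58). Ciart and Tef were not called without Otx2(+/-) pool 1 (edgeR adjusted p = 0.44 and 0.1). Per2 was not called with all 3 groups in 1 fit (edgeR adjusted p = 0.097) or with the sum over transcripts (0.051), and Ciart in neither (0.24 and 0.1). Between 4 and 9 clock genes were called with a pool left out, the most without Otx2(+/-) pool 2. The time of day of each dissection is not given in the sources used here, and its part was not tested.

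Of 15 glucocorticoid-induced genes, 3 were higher and 0 lower (20%, beside 2.7% of all genes), with a median of 0.58. Beside Zbtb16 and Dusp1, this was Errfi1, a feedback inhibitor of the EGF receptor (542 and 491 normalized counts against 319 and 314, log2 0.70). Without Otx2(+/-) pool 1, 0 of them were called (Errfi1 adjusted p = 0.11, Zbtb16 0.44 and Dusp1 0.1 by edgeR), and 9 were called without Otx2(+/-) pool 2. Of 14 photoreceptor and pigment epithelium genes, 4 were lower (Sebox, Rrh, Slc16a8 and Rd3l) and 1 was higher (35.7% called), with a median of -0.35. Rd3l had 17.2 and 15.4 against 59 and 75.5 (log2 -2.04). The higher gene was Tyrp1, an enzyme of melanin synthesis, with 47.4 and 33.9 against 12.2 and 9.31 (log2 1.90), and its adjusted p was 0.17 without Otx2(+/-) pool 1 and 0.062 without Otx2(+/AA) pool 2 by edgeR. With a pool left out, 5 to 9 of these genes were called, the most without Otx2(+/-) pool 2.

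The wildtype pools of the same run were then read beside both groups, with no test. The wildtype mean was nearer to the Otx2(+/AA) mean than to the Otx2(+/-) mean in 305 of the 393 called genes (77.6%) and in 59.7% of all genes tested. Over the 6 pools, the first principal component (38.5% of the variance) placed the Otx2(+/-) pools at 38.6 and 27, the Otx2(+/AA) pools at -13 and -14.3 and the wildtype pools at -17 and -21.4. On the second component (23.7%), the wildtype pools were apart from each other, at 33.7 and 1.26. These shares compare levels that enter the calls themselves, and describe where the third group lies.

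The called genes fell into different orders of the 3 groups. They were selected for a wide gap between the 2 groups and a small spread, and both affect which orders can arise. Their shares and those of other genes are therefore not like for like and are a description only. In 102 genes (26%), both Otx2(+/AA) pools lay between the Otx2(+/-) and the wildtype pools, beside 15.1% of the 6475 genes whose Otx2(+/-) and Otx2(+/AA) pools do not overlap. Tmprss11a was one of them, with 62.6 and 65.6 normalized counts in the Otx2(+/-), 496 and 414 in the Otx2(+/AA) and 952 and 1052 in the wildtype pools. Rrh had 167 and 142 and Sebox 99.5 and 85.9 in wildtype, far above both other groups. Slc39a4 (769 and 884 in wildtype), Bmp6 (2833 and 2504), Stra6 (1397 and 1754), Igf2 and Igfbp2 (50488 and 48062) had the same order, and so did Trhr, Pi15, Pik3c2g and Megf11 with the sign turned, being lowest in wildtype. Trhr had 17.6 and 26 normalized counts in the wildtype pools.

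In 107 called genes (27.2%), both wildtype pools lay between the 2 groups, beside 8.4% of the 6475, so that 1 genotype was above wildtype and the other below it. Cacna2d3 had 37.3 and 46.3 in wildtype, below the 151 and 154 of the Otx2(+/AA) pools and above the 6.06 and 17.4 of the Otx2(+/-) pools. Sult1c1 (10.4 and 12.4), Ildr1 (10.4 and 5.65), Ly6g6d (14.5 and 7.91), Klhl14 (12.4 and 24.9) and Cldn9 (534 and 461) had the same place. Epithelial genes singled out after their values were seen stood here too: Epcam had 12.1 and 18.5 in the Otx2(+/-), 73.1 and 52.8 in the Otx2(+/AA) and 50.8 and 41.8 in the wildtype pools, and Spint1, a protease inhibitor of epithelia, had 55.5 and 67.7, 310 and 260, and 198 and 211. Among genes higher in the Otx2(+/-) pools, Pthlh, a parathyroid hormone relative, had 981 and 972, 129 and 168, and 281 and 286, and Gfra1, a GDNF receptor, had 1603 and 941, 208 and 264, and 399 and 336.

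In 122 called genes (31%), the wildtype pools overlapped the Otx2(+/AA) pools alone, beside 35.6% of the 6475. Otx2, Fmod (430 and 292 in wildtype), Ndnf (93.3 and 98.3) and Baiap2l2 (71.5 and 85.9) were of this kind. In 48 genes (12.2%), the wildtype pools overlapped the Otx2(+/-) pools alone, beside 19.3% of the 6475. In 3 genes (Arntl, Btn2a2 and Cybrd1, 0.763%) the wildtype pools lay beyond the Otx2(+/-) pools, beside 4.56% of the 6475. In the remaining 11 genes (2.8%, beside 17% of the 6475), all called higher, the 2 wildtype pools reached into both groups. Zbtb16, Ciart and Errfi1 were among them.

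**Figure D5:**
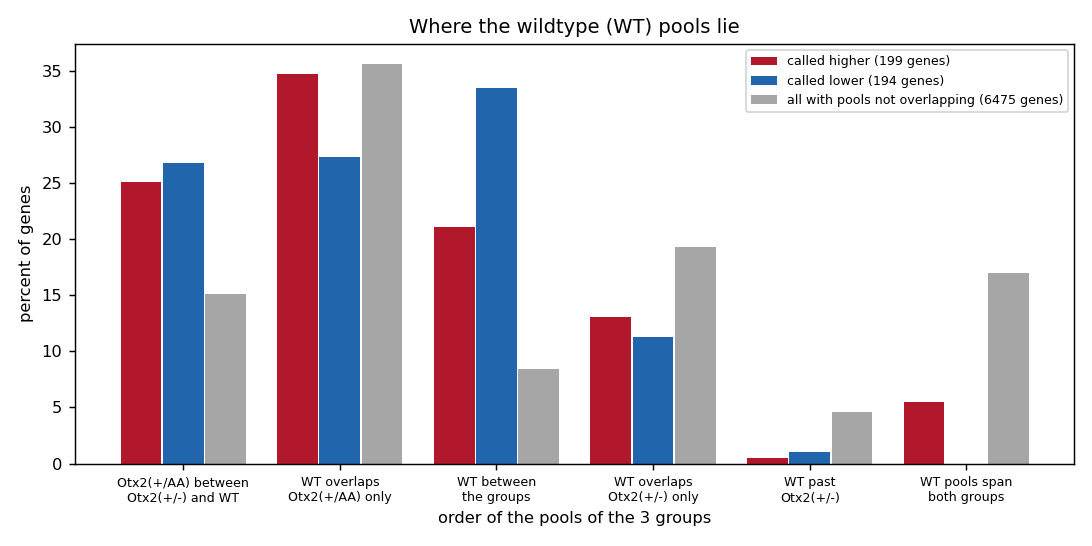
Share of genes, in percent, by the place of the 2 wildtype pools relative to the Otx2(+/-) and Otx2(+/AA) pools, for the 199 genes called higher, the 194 called lower and all 6475 genes whose pools of the 2 groups do not overlap. Genes with the wildtype pools between the groups, or with the Otx2(+/AA) pools between the others, make up larger shares of the called genes than of the 6475. The called genes were selected for a wide gap and a small spread, so these shares are not like for like.

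Both alleles sit at the same locus, so DNA linked to Otx2 can differ between the groups, and genes on chromosome 14 were looked at by position. Within 10 Mb of Otx2 on either side, 148 genes were tested and 3 were called (2.03%), beside 12 of 340 (3.53%) on the rest of the chromosome and 2.7% of all genes. The 3 genes were Lgals3, which encodes galectin-3 (52.5 and 54.4 normalized counts against 109 and 217, log2 -1.60), the RNA of ribonuclease P, Rpph1 (2762 and 2946 against 1286 and 1771, log2 0.90), and Fgf9. None of the 6 genes tested within 1 Mb was called by edgeR. Without 1 pool, 2 to 9 genes of the window were called, the most without Otx2(+/AA) pool 2.

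Small structured RNAs moved in 1 direction. Of 104 small nucleolar, Cajal body, spliceosomal and RNase-type RNAs tested, 11 were higher and 0 lower by edgeR. Their median log2 fold change was 0.67. For small nucleolar RNAs alone, 7 of 85 were higher (8.24%). Of all genes tested, 1.37% were higher and 1.33% lower. Snora74a had 541 and 520 normalized counts in the Otx2(+/-) pools against 245 and 199, and Rmrp, the RNA of the RNase MRP, had 5607 and 5356 against 3620 and 3328. In wildtype, 1 pool was at or above the Otx2(+/-) level and the other near the Otx2(+/AA) level for both RNAs (654 and 225 for Snora74a, 9287 and 3061 for Rmrp). These RNAs mostly lack poly(A) tails and many lie in introns of other genes. The part of library preparation was not tested.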

How the data were processed

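The 4V ChP libraries were 50-base reads from a HiSeq 1500. The sample labels describe depletion of ribosomal RNA and a stranded kit, and the paper describes PolyA+ selection. The authors deposited whole-number counts of reads per Ensembl transcript, without normalization, made per the submitters' processing notes with bcl2fastq 1.8.4, Bowtie 0.12.9, SAMtools, HTSeq 0.5.3 and mm10, which also name DESeq 1.8.3. The strand setting and annotation release are not given in the sources used here.

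Of 95533 transcripts, 82807 matched GENCODE vM21 (GRCm38) and held 89.1% to 89.8% of the counts in these 6 pools, and the other 12726 were left out. For each of 33984 genes, 1 transcript was kept, the one whose counts summed highest across the 22 files, since a read can count for every transcript it overlaps. The sum over transcripts was an alternative. Genes were tested with edgeR 4.0.16 (filterByExpr, TMM, quasi-likelihood test) in R 4.3.3, on 2 pools against 2, with Benjamini-Hochberg adjustment across 14578 genes and a threshold of 0.05. The biological coefficient of variation was 0.128. The SE of a log2 fold change is its size divided by the square root of the test's F. DESeq2 1.42.0 was an alternative, and tables were made in Python 3.11.15. Ratios of low counts carry exact 95% intervals for counting error only. On simulated data with 200 of 14578 genes changed, 76.1% of changes of 1 and 97.8% of changes of 2 on the log2 scale were called, with 5.49% false calls. The simulated counts were drawn independently with the spread that edgeR itself fits. They check the code and do not give the rate of false calls between real pools.

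Named genes are Otx2, the 12 largest called differences in each direction with a mean normalized count above 10, up to 4 called members of each gene list in each direction, defining cell type markers, and Ttr, Igf2, Shh, Trhr, Sptlc3, Gpx3 and Fmod. A few genes that this rule names are not reported here. The members and lists were chosen with earlier results of these data known, and 3 lists were added after these values were seen. Alternatives were DESeq2, its size factors, no filter, scaling by total counts, a minimum mean count of 10, a replicate block, all 3 groups in 1 fit, the sum over transcripts, and each pool left out. The labels call the pools biological replicates. The p-values set the group difference against the spread between the 2 pools of each group, estimated with information from all genes.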

Additional observations from a re-analysis of the deposited data

How the results depend on the processing

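No called gene changed its sign under any of the 12 alternatives run. Of 85 named genes that were called, 49 kept their call under all 12, and 29 named genes were not called. The number called was 391 to 526 under DESeq2, its size factors, no filter, scaling by total counts, a minimum mean count of 10 and the replicate block, 333 with all 3 groups in 1 fit and 248 (119 higher and 129 lower) with the sum over transcripts, whose cause was not tested. Total counts gave 183 higher and 294 lower, or 38.4% higher beside 50.6%, and shifted the median over all genes to -0.07 (log2). With 1 pool left out, the number called was 403 to 790, the number higher 221 to 440 and the number lower 182 to 350 (595 called without Otx2(+/AA) pool 1, 650 without Otx2(+/AA) pool 2 and 790 without Otx2(+/-) pool 2), where the lone pool of a group is assumed to vary like the other group. Called members of the 21 lists numbered 77 in all, 51 with the sum over transcripts and 70 to 129 with a pool left out. Genes called within 10 Mb of Otx2 numbered 1 with all 3 groups in 1 fit and 2 to 9 with a pool left out. The replicate number as a block gave 526 calls, 260 higher and 266 lower. Deviations of Otx2(+/-) and Otx2(+/AA) pools with the same number had a correlation of 0.08. A pairing by number is thus not shown between these 2 groups, nor by the labels. The wildtype pools were not part of that correlation. On the second principal component, pool 1 lay above pool 2 in the Otx2(+/-) (11.9 and -12.1) and wildtype groups (33.7 and 1.26). It lay below pool 2 in the Otx2(+/AA) group (-21.1 and -13.7). The part of the pool number in the run was not tested further.

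Some marker genes that were not called changed sign. Log2 values went to -0.02 for Pdgfra with total counts, to 0.17 for Alas2 with the replicate block, and to 0.03 for Cd68 and 0.01 for Mbp with the sum over transcripts. With a pool left out they spanned -0.19 to 0.13 for Ccnd2, -0.02 to 0.2 for Kcnj13, -0.11 to 0.11 for Clic6, -0.21 to 0.05 for Kdr, -1.33 to 0.11 for Cldn5, -0.02 to 0.31 for Rgs5, -0.28 to 0.16 for Pdgfrb, -0.29 to 0.29 for Col1a1, -0.47 to 0.5 for Cd68, -0.26 to 0.07 for Csf1r, -1.16 to 6.31 for Alas2, -0.67 to 0.83 for Snap25 and -0.13 to 0.03 for Mbp.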

Other observations

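Genes that line and join epithelial cells, picked after their values were seen and belonging to none of the lists, were lower in the Otx2(+/-) pools. Krt18 and Krt8, the paired keratins of simple epithelia, had 2322 and 2694 normalized counts against 4530 and 4843 (log2 -0.90), and 85.8 and 114 against 195 and 207 (log2 -1.01). Dsp, the desmosome protein desmoplakin, had 1239 and 982 against 2325 and 2299 (log2 -1.06). Epcam, an epithelial adhesion molecule, had a log2 value of -2.04 and Spint1, a protease inhibitor of epithelia, -2.21, with their pools given in the report. In wildtype, Krt18 had 4086 and 3919 and Dsp 3132 and 2501. These 5 genes were selected for their decrease, so that their number supports nothing about epithelial genes in general.

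On chromosome 13, the neighbouring zinc-finger genes Zfp458, Zfp457 and Zfp595 (chr13:67254918-67278466, chr13:67288138-67306485 and chr13:67312998-67332570) were called higher together, also noticed after their values were seen. Zfp595 had 237 and 192 normalized counts in the Otx2(+/-) pools against 101 and 107, with 171 and 139 in wildtype. Zfp458 had 68.6 and 82.1 against 27.2 and 27.9, with 63.2 and 66.7 in wildtype, and Zfp457 had 29.3 and 33.9 against 6.56 and 7.24. Such genes have related copies, and whether reads were shared among them was not tested.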
